A study of Mus musculus with 2 samples.

Results

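AMPA receptors carry most fast excitatory transmission in the brain, and 7 genes of this receptor system were followed in the newborn mouse cortex. They are the pore-forming subunits Gria1, Gria2, Gria3 and Gria4 and the auxiliary proteins Cnih2, Cnih3 and Gsg1l, chosen by name out of 55536 annotated genes. The material was the left cerebral cortex of male mice of the strain B6CASTF1/J, the first-generation cross of C57BL/6 with CAST, sampled 4 days after birth, with no transgene, deletion or treatment named in the labels. There were 2 total RNA libraries, each from 300 ng of RNA with ribosomal RNA reduced, labelled as biological replicates 1 and 2 of a single group. The series therefore holds no contrast between conditions, and what can be described is the level of each gene, its transcripts, and how far the 2 libraries lay apart. The labels number the 2 tissue samples as different males but list both under a shared donor record, so that they came from different mice rests on that numbering. SDs measure only the spread between these samples. The p-values of the exact binomial test used below allow for the sampling of reads only. Neither speaks for other mice.

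An AMPA receptor is a tetramer of the subunits GluA1 to GluA4, encoded by Gria1 to Gria4. Receptors that contain GluA2 edited at its Q/R site, where a glutamine codon of the messenger is changed to arginine, pass little calcium, and receptors without GluA2 pass more. Every subunit gene also has a pair of alternative exons, flip and flop, next to the last membrane segment. Flip forms are known to prevail in the young brain and flop forms to rise later, and in most subunits flip and flop forms differ in how fast the channel desensitises. Cornichons (Cnih2, Cnih3), TARPs (transmembrane AMPA receptor regulatory proteins, the Cacng genes) and Gsg1l, a claudin-like protein, bind the assembled receptor and change its export, surface number and gating.

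The exons that tell flip from flop were located in the mm10 annotation and read from the GENCODE M21 transcripts. In each of the 4 genes both exons were 115 bases long and flop came first in the direction of transcription, followed by flip after 724 bases in Gria1, 801 in Gria2, 14576 in Gria3 and 5628 in Gria4. The pairs of Gria2 and Gria4 are shown because Gria2 gave the most closely repeated flip share and Gria4 the least. Gria2 flip lies at chr3:80690404-80690518 and Gria2 flop at chr3:80691320-80691434, and Gria4 flip at chr9:4427030-4427144 and Gria4 flop at chr9:4432773-4432887, all on the minus strand of mm10. Sequences are written 5′ to 3′ as in the transcript, and capitals mark the positions at which flip and flop of the same gene differ.
Gria2 flip: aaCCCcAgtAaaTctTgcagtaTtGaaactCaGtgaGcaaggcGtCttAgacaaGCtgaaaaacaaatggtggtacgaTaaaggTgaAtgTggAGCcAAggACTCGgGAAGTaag
Gria2 flop: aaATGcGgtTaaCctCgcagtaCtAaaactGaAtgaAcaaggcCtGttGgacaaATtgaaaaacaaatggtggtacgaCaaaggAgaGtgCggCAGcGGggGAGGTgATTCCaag
Gria4 flip: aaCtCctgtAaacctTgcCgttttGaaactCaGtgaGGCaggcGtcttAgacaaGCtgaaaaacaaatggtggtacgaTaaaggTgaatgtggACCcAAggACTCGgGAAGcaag
Gria4 flop: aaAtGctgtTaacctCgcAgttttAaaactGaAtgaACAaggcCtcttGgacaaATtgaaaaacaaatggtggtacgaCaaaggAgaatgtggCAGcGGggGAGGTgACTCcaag
Flip and flop differed at 36 of the 115 positions in Gria1 and in Gria2, at 32 in Gria3 and at 31 in Gria4. Between genes the same exon was closer, with 9 to 14 differing positions among the 4 flip exons and 6 to 14 among the 4 flop exons. The forms of a gene thus differed from each other at more places than the matching exons of the other genes did.

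The Q/R site of Gria2 lies in exon 11 of 16, inside chr3:80706899-80706928 on the minus strand. It is shown because transcripts with retained introns described below also cover it. Capitals mark the glutamine codon of the reference.
Gria2 Q/R site: ttgggtgcctttatgCAGcaaggatgcgat
The reference codon at the matching place was CAG in Gria1 and Gria3 as well and CAA in Gria4. How far Gria2 messengers were edited there was not analysed here.

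Depth was similar, at 26897687 expected counts for replicate 1 and 29511737 for replicate 2. The scale of all levels is TPM, in which reads are divided by transcript length and scaled to the library, so that genes can be set side by side. A gene was called detected at 1 TPM or more in both libraries, which held for 13084 of 22028 protein-coding genes (59.4%), with a median level of 17.62 TPM over those detected, and for 15577 of all annotated genes (28.0%). All 7 genes were detected, as were all 8 markers of cortical excitatory neurons. In bulk RNA, fewer cells that express a gene and less of its RNA per cell cannot be told apart.

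Gria2 (ENSMUSG00000033981.14, chr3:80681450-80802835, minus strand) was the highest of the pore-forming subunits. It stood at 191.17 TPM in replicate 1 and 172.61 in replicate 2, a mean of 182 ± 13.1 (SD, n = 2), above 96.9% of detected protein-coding genes. Counting all annotated transcripts, both libraries had more Gria2 than Gria1, Gria3 and Gria4 together. The factor was 1.26 in replicate 1 and 1.17 in replicate 2. Over protein-coding transcripts alone this did not hold, as Gria2 took 43.5% and 40.3% of the summed Gria TPM. Gria1 (ENSMUSG00000020524.16, chr11:57011387-57330244, plus strand), whose subunit is known for its traffic to synapses during plasticity, was at 73.06 and 80.48 TPM, a mean of 76.8 ± 5.25. Its level was above 89.0% of detected protein-coding genes, and the ranges of Gria2 and Gria1 were far apart.

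Gria4 (ENSMUSG00000025892.16, chr9:4417896-4796234, minus strand), whose subunit forms fast-gating channels, was at 43.04 and 37.65 TPM, a mean of 40.3 ± 3.81. Gria3 (ENSMUSG00000001986.16, chrX:41400854-41678601, plus strand), a subunit that mostly assembles with GluA2, was at 35.30 and 29.23 TPM, a mean of 32.3 ± 4.29. Gria4 was above Gria3 in each library, although the lower Gria4 value was close to the higher Gria3 value. The gap in Gria3 TPM was not matched by its reads, which came to 2567 expected counts in replicate 1 and 2689 in replicate 2. Its short annotated transcript Gria3-203, of 322 bases, was given 14.51 expected counts and 3.82 TPM in replicate 1 and 0 in replicate 2. The full-length Gria3-201 was at 22.43 and 21.54 TPM.

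Cnih2 (ENSMUSG00000024873.7, chr19:5092868-5098521, minus strand), a cornichon that slows channel deactivation and desensitisation, was at 196.24 and 199.87 TPM. Its mean of 198 ± 2.57 was the highest of the 7 genes and lay above 97.3% of detected protein-coding genes. Its relative Cnih3 (ENSMUSG00000026514.14, chr1:181352628-181460641, plus strand) was at 25.84 and 32.00 TPM, a mean of 28.9 ± 4.36. Cnih2 exceeded Cnih3 by a factor of 7.59 in replicate 1 and 6.25 in replicate 2. Gsg1l (ENSMUSG00000046182.8, chr7:125878420-126082411, minus strand), which slows recovery from desensitisation, was the lowest at 8.22 and 9.83 TPM. Its mean of 9.03 ± 1.14 was below the median detected gene, and only 30.6% of detected protein-coding genes were lower.

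**Figure D1:**
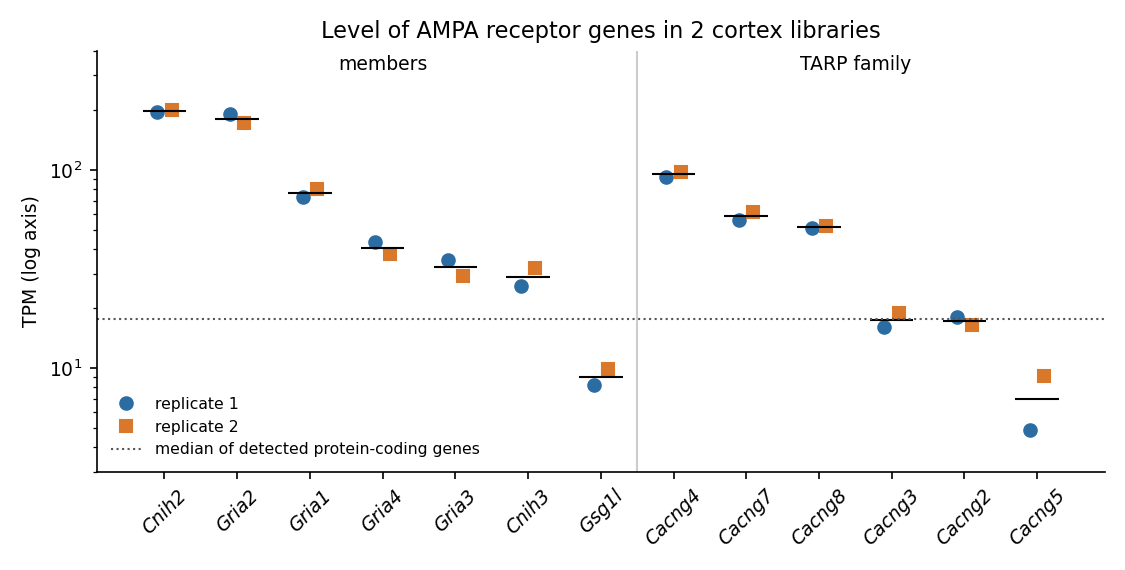
Level of each gene in TPM on a log axis, with circles for replicate 1, squares for replicate 2 and a line at their mean; the 7 genes are on the left and the TARP family on the right. Cnih2 and Gria2 stand near 200 TPM in both libraries, and Gsg1l and Cacng5 lie lowest, below the dotted median of detected protein-coding genes at 17.62 TPM. The means of Cacng2 (17.3) and Cacng3 (17.5) lie just under that median.

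The order from highest to lowest was Cnih2, Gria2, Gria1, Gria4, Gria3, Cnih3 and Gsg1l. Neighbours were called different when both libraries gave the same order and the mean log2 ratio within libraries, after adding 0.1 TPM, exceeded 2 SD. These ratios count all annotated transcripts of a gene. By them Cnih2 and Gria2 were not told apart, with a log2 ratio of 0.12 ± 0.12. Protein-coding Gria2 transcripts with a flip or flop exon were lower, at 109.55 TPM in replicate 1 and 94.41 in replicate 2. The protein-coding Cnih2-201 was at 194.59 and 196.31 TPM. Gria2 exceeded Gria1 by 1.24 ± 0.20 (2.37-fold), and Gria1 exceeded Gria4 by 0.93 ± 0.23 (1.90-fold). Gria4 exceeded Gria3 by 0.32 ± 0.06 (1.25-fold). Over protein-coding transcripts with a flip or flop exon the order was the reverse in both libraries. Gria4 was at 19.71 and 16.70 TPM there, and Gria3 at 22.43 and 21.54. Gria3 and Cnih3 were not told apart at 0.16 ± 0.41, and in the other of the deposited quantifications Cnih3 came before Gria3. Cnih3 exceeded Gsg1l by 1.67 ± 0.04 (3.17-fold). With 2 libraries a sign test cannot give a two-sided p below 0.5, so no p-value is attached to this order.

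The summed level of the 4 Gria genes was 342.57 TPM in replicate 1 and 319.97 in replicate 2. Gria2 made up 55.8% and 53.9% of it, a mean of 54.9 ± 1.31%. Gria1 followed with 21.3% and 25.2% (23.2 ± 2.70%), Gria4 with 12.6% and 11.8% (12.2 ± 0.564%) and Gria3 with 10.3% and 9.14% (9.72 ± 0.827%). Gria2 was thus the largest component in both libraries by this measure. These sums include transcripts that do not encode a whole subunit, and when the sum was restricted to protein-coding transcripts that hold a flip or a flop exon the make-up moved. Gria1 then took 33.6 ± 4.16%, Gria2 47.6 ± 3.47%, Gria3 10.3 ± 0.0366% and Gria4 8.50 ± 0.721%. Gria2 stayed first and Gria1 second in both libraries, while Gria4 went from the place after Gria1 to the last. In TPM these full-length forms came to 71.8 for Gria1, 102 for Gria2, 22.0 for Gria3 and 18.2 for Gria4.

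**Figure D2:**
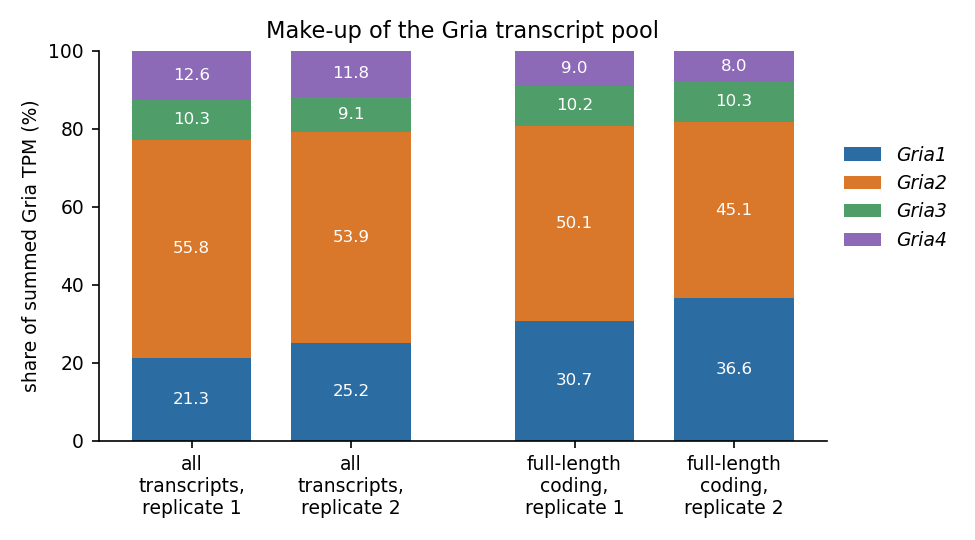
Share in percent of each Gria gene in their summed TPM, as stacked bars for each library, with all annotated transcripts on the left and protein-coding transcripts that hold a flip or flop exon on the right. Gria2 takes the largest share in all 4 bars, and Gria1 takes more of the full-length coding pool (30.7% and 36.6%) than of the whole (21.3% and 25.2%).

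The transcripts behind each gene level differed widely in kind. In the main quantification nearly all Gria1 RNA was given to transcripts annotated as protein-coding. They were led by the flip form Gria1-201 at 84.85% of the gene's TPM in replicate 1 and 84.67% in replicate 2. Among them, Gria1-203, of 287 bases with 13 coding bases, took 8.05% and 4.98%. The other quantification gave 9.41% and 0% of Gria1 to the processed transcript Gria1-205. Gria2 was led by its flip form Gria2-202 at 44.98% and 43.00%, and its flop form Gria2-201 took 12.33% and 11.69%. Another 40.5% and 43.1% of Gria2 TPM fell on 5 transcripts annotated as retaining an intron, a mean of 41.8 ± 1.80%. Over 7617 detected genes with transcripts of that class the median share was 13.6%, and 89.7% of these genes had a lower share than Gria2. For Gria3 the same class took 20.3 ± 0.269%, with 64.3% of genes lower.

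The retained-intron share of Gria2 came mainly from a pair of transcripts. Gria2-206 took 19.59% and 22.37% and ends with 764 bases of intron 13, the last intron before the flop exon. Gria2-204 took 15.45% and 17.39%. It holds intron 10 whole and 2249 bases of intron 11, and so covers the exon with the Q/R codon CAG shown above. Gria2-206 and the protein-coding forms hold that exon too. Of the 4799 bases of Gria2-204, 2689 lie in no protein-coding Gria2 transcript. The other quantification gave the class 36.7% and 39.8%. Total RNA includes unspliced RNA of the nucleus, and how much of this share was pre-messenger RNA cannot be told from these tables.

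**Figure D3:**
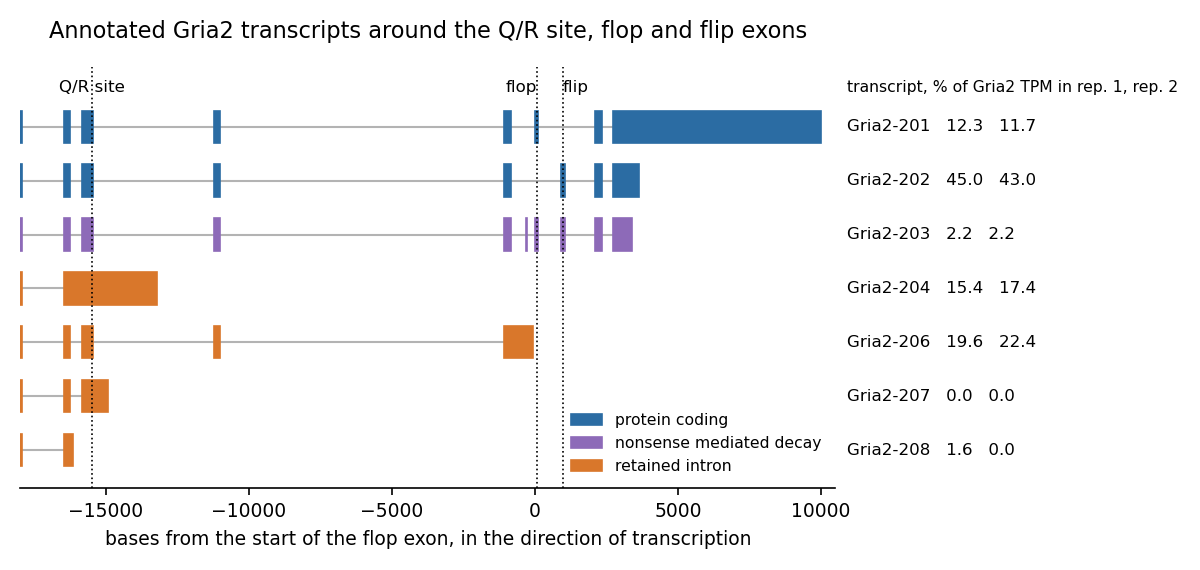
Exons (boxes) of the annotated Gria2 transcripts that reach this region, drawn to scale in bases from the start of the flop exon in the direction of transcription and coloured by annotated class, with each transcript's percent of Gria2 TPM in replicates 1 and 2 at the right. Dotted lines mark the Q/R site and the flop and flip exons; Gria2-204 covers the exon with the Q/R site between retained stretches of introns 10 and 11, and Gria2-206 ends just before the flop exon.

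By TPM, Gria4 was led by a truncated form. Gria4-203 has 11 exons and 1299 coding bases against 2706 in the full-length forms, holds neither flip nor flop exon, and took 54.20% and 55.64% of Gria4 TPM. Its lead held in both libraries of both quantifications, at 52.0% and 55.5% in the other one. By this assignment, full-length Gria4 RNA was 19.71 and 16.70 TPM out of gene levels of 43.04 and 37.65. By expected counts the full-length flip form Gria4-202 was ahead of Gria4-203, with 1340.88 and 935.67 against 889.37 and 903.39. How many of the reads given to Gria4-203 came from unspliced RNA was not tested. Gria3 was led by its flip form Gria3-201 at 63.55% and 73.70%. Among the auxiliary genes, Cnih2-201 took 99.16% and 98.22% of Cnih2 and Cnih3-201 took 78.38% and 84.66% of Cnih3, while Gsg1l has the single annotated transcript Gsg1l-201.

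Flip forms outweighed flop forms in Gria1, Gria2 and Gria3. The flip share is the TPM of transcripts that hold the flip exon over that of transcripts that hold either exon, and those that hold both (Gria2-203 and Gria3-206) count as flip. It was 92.3% and 89.5% in Gria1 (90.9 ± 1.96%). Gria2, whose flip and flop exons are printed above, had 79.3% and 79.5% (79.4 ± 0.138%), and Gria3 had 84.0% and 86.7% (85.4 ± 1.94%). The other quantification gave 84.2% and 83.9%, 81.4% and 81.5%, and 79.8% and 84.0% in the same order, so that flip prevailed in these 3 genes in each library by either table. The other table did not separate Gria1 from Gria3 in replicate 2.

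The flip share of Gria4 differed between libraries and between tables. It was 76.1% in replicate 1 and 55.4% in replicate 2, a mean of 65.7 ± 14.6%, and 63.5% and 39.7% in the other quantification, which puts flop ahead in replicate 2. The flip form Gria4-202 was at 14.99 and 9.25 TPM. The flop form Gria4-201 was at 2.08 TPM in replicate 1, with an interval of 0.134 to 3.96 given by the authors, and at 6.73 in replicate 2, with an interval of 3.83 to 8.32. The second flop form, Gria4-204, was at 2.64 and 0.72 TPM, and the other quantification ranked this form above Gria4-201 in both libraries. The intervals cover the assignment of reads within a library, and their level is not stated in the deposited tables.

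Flip shares also rest on how transcripts are annotated, since the forms differ elsewhere too. The Gria2 flop transcript holds 6345 bases outside the flop exon that the flip transcript lacks, because its 3′ UTR is annotated with 7268 bases against 923. The Gria3 flip transcript holds 2241 bases or more outside the flip exon that the flop transcripts lack. In Gria1 that figure was 147 bases, and in Gria4 it was 3 bases against Gria4-201 and 301 against Gria4-204. Outside the flop exon, Gria4-201 holds 92 bases and Gria4-204 holds 156 that the Gria4 flip transcript lacks. For Gria3, protein-coding flop transcripts were at 0 TPM in the main quantification. The part of its share not counted as flip came from Gria3-208, a retained-intron form. Gria3-206, which holds both exons, was counted as flip.

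**Figure D4:**
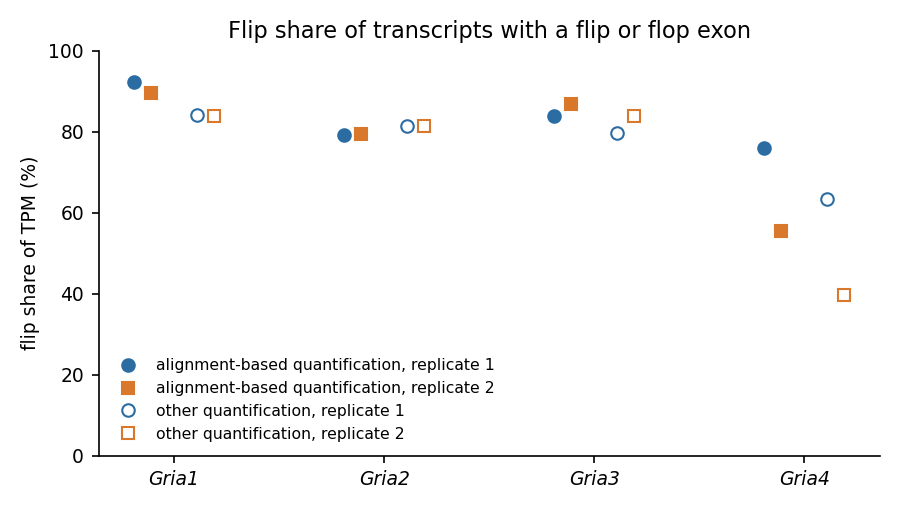
Flip share in percent for each Gria gene, with circles for replicate 1 and squares for replicate 2, filled for the quantification made from alignments and open for the other. Points of Gria1, Gria2 and Gria3 all lie above 79%, while those of Gria4 run from 39.7% to 76.1%.

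Members of the same family shared little exact sequence. Coding sequences of the Gria genes were 69.1% to 72.7% identical over their 6 pairs, and those of Cnih2 and Cnih3 77.1% over 480 bases. Of all words of 31 bases in each gene's transcripts, 0% (Cnih2) to 1.45% (Gria3) also occurred in another gene. Overlapping annotation was small: a microRNA gene lies within each of Gria2, Gria3 and Gria4, with 111 shared exonic bases in Gria2, and Yif1a on the opposite strand shares 14 bases with Cnih2. Of the 7 genes, Gria2 alone had expected counts that were not whole.

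The 2 libraries were then compared gene by gene, as replicate 2 over replicate 1, on expected counts scaled with TMM factors. A two-sided exact binomial test, which allows for the sampling of reads only, was adjusted by the Benjamini-Hochberg method over 20385 genes and called 26.7% of them, 13.9% higher and 12.8% lower in replicate 2. Of the 7 genes 4 were higher, 2 were lower and 1 was not called. Their median log2 ratio was 0.10, beside -0.00 over all genes tested, whose SD was 0.56. Over the protein-coding genes tested the median was 0.02 and the SD 0.43. The genes tested reach down to 10 counts over both libraries, while the 7 genes had 1259 to 30307. An edgeR exact test of 1 library against the other was run with a common dispersion (biological coefficient of variation 0.109). That dispersion was estimated over all genes from the same 2 libraries, so the test ranks a gene's difference against that of other genes and is no independent check on replicates. It called 0 of the 7 and 0.966% of all genes. At an unadjusted p under 0.05 it held 0 of the 7 and 1380 of all genes. With TMM scaling the libraries thus differed by more than read sampling for 6 genes. The binomial test called 5 of the 7 with total counts as the scaling and 4 in the other quantification. With spike-in RNAs as the scaling it called 6, Gria3 among them and Cnih2 not.

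Cnih3 differed most, with 1009 expected counts in replicate 1 and 1452 in replicate 2, a log2 ratio of 0.42 (SE 0.0591 from counts, adjusted p = 2.90e-11 by the exact binomial test). Its edgeR exact test gave an adjusted p of 0.838 and an unadjusted p of 0.0685. Gsg1l, with 535 and 724 counts, was higher in replicate 2 by 0.33 (SE 0.0822). Gria1, with 6236 and 8015 counts, was higher by 0.26 (SE 0.0244). Cnih2 had 4146 and 4764 counts and a ratio of 0.10 (SE 0.0306), which was no longer called with total counts (0.07) or spike-in RNAs (0.00) as the scaling. Gria4, with 2649 and 2603 counts, fell by 0.13 on the log2 scale (SE 0.0398), and Gria2, with 14989 and 15318, fell by 0.07 (SE 0.0166). Neither of these falls was called in the other quantification. Gria3 had a ratio of -0.04 (adjusted p = 0.555, exact binomial test) and was called lower with spike-in scaling (-0.13). With TMM scaling the higher calls were Gria1 and the 3 auxiliary genes, of which Cnih2 lost its call under the total-count and spike-in scalings.

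Markers of other regions and cell types also differed between the libraries, none of them without reads. In replicates 1 and 2 the summed TPM of 5 striatal markers was 65.7 and 102 (5 higher in replicate 2 by the binomial test), that of 5 interneuron markers 242 and 306 (4 higher) and that of 5 astrocyte markers 236 and 261 (5 higher). The 3 markers of olfactory bulb output neurons summed to 7.45 and 37.3 (3 higher). The 4 choroid plexus markers summed to 1.97 and 34.2, of which Ttr, named here after its values were seen, made up 1.03 and 32.43. Of the other 3, Clic6 was higher but under 1 TPM, Kl was not called at 0.52 and 0.49 TPM, and Folr1 had too few counts to test. The 8 markers of cortical excitatory neurons summed to 734 and 670 (2 higher, 3 lower). Oligodendrocyte precursors had 119 and 109 over 5 markers (2 higher, 3 lower), and endothelium 92.5 and 81.7 over 5 (2 lower). Microglia had 32.9 and 36.4 over 5 (0 called), and dentate gyrus 6.76 and 7.54 over 4 (0 called). Of the dentate gyrus sums Prox1, named here after its values were seen, made up 5.82 and 6.18, and Lct, Dsp and C1ql2 were each under 1 TPM. The edgeR exact test called 3 olfactory bulb markers, 1 striatal and 1 choroid plexus marker, and 0 in each of the other 7 lists. Over all genes tested the binomial test called 13.9% higher and 12.8% lower, and the edgeR exact test called 0.966%. For the markers that were called, their part in the receptor gene ratios was not tested.

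**Figure D5:**
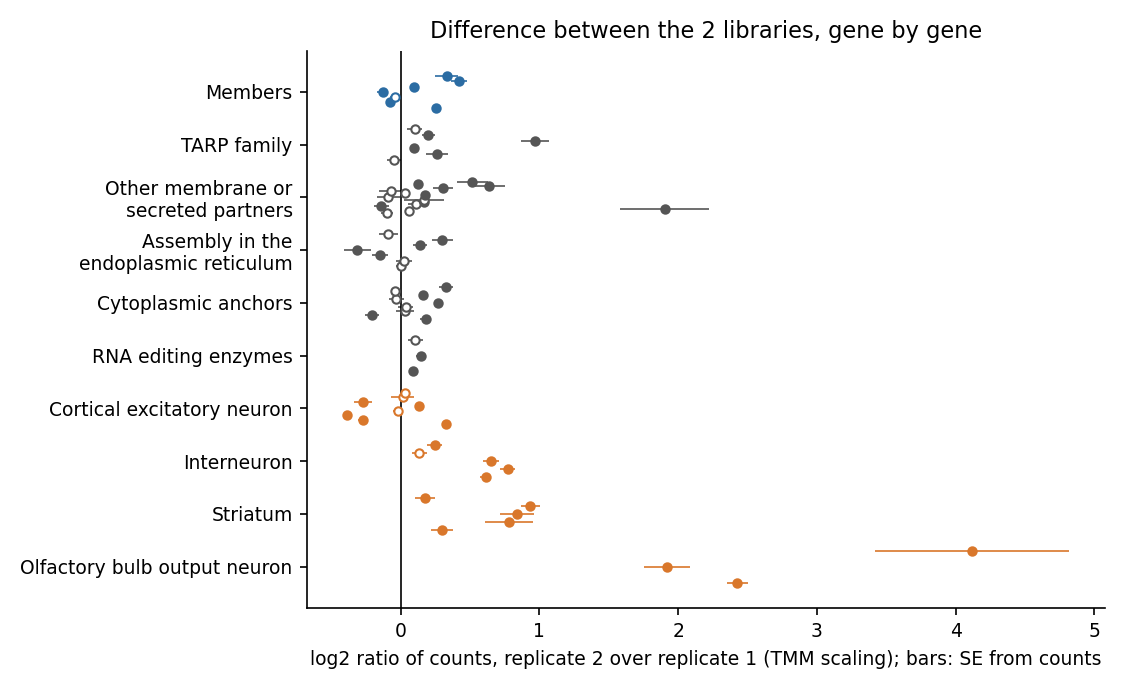
Log2 ratio of counts, replicate 2 over replicate 1 with TMM scaling, for each gene of the lists named on the left, with bars of 1 SE from counts; filled points passed the exact binomial test and open points did not. The 7 AMPA receptor genes (top row) lie between -0.13 and 0.42, and the 3 olfactory bulb markers (bottom row) all lie above 1.9.

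Other genes of the receptor's life cycle were taken as 5 lists with 40 genes in all. Of these, 39 were detected, 2 stood above Gria2, 31 between Gria2 and Gsg1l, and 7 below Gsg1l. In the binomial test 19 of the 40 were higher in replicate 2 and 4 lower, beside 13.9% and 12.8% of all genes tested, and the edgeR exact test called 2, beside 0.966%.

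The TARP family, which includes the classical partners of the receptor at the synapse, had all 6 genes detected with a median of 34.5 TPM. Cacng4 was highest at 94.9 ± 4.00 TPM, followed by Cacng7 at 58.7 ± 4.21, and Cacng5 was lowest at 4.87 and 9.08 TPM. The TARP genes summed to 237.6 and 256.14 TPM, which is 0.694 and 0.801 of the summed Gria level. Cnih2 and Cnih3 together came to 0.648 and 0.725 of it. That Gria level takes in all annotated transcripts, also those that do not encode a whole subunit, so these ratios are not per full-length subunit RNA. By the binomial test 4 of the 6 TARP genes were higher in replicate 2 and 0 were lower (13.9% and 12.8% over all genes). Cacng5 had the largest log2 ratio of the family, 0.97, and was the 1 TARP gene past the threshold of the edgeR exact test on the same libraries (adjusted p = 0.0129).

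Other membrane or secreted partners had 14 of 15 genes detected and a median of 25.8 TPM. Olfm1, a secreted olfactomedin, was highest at 218 ± 12.7 TPM, above Gria2, and Nptxr, the neuronal pentraxin receptor, followed at 123 ± 3.71. Vwc2 was the lowest detected at 4.97 ± 0.0636. The binomial test called 7 of the 15 higher and 1 lower (13.9% and 12.8% over all genes). Shisa8, named here after its values were seen, was the gene not detected, at 0.76 and 2.13 TPM, and the edgeR exact test called it (adjusted p = 0.000122).

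Genes of receptor assembly in the endoplasmic reticulum were all detected (7 of 7), with a median of 30.4 TPM. Abhd12, a lipid hydrolase found with native receptors, was highest at 59.8 ± 1.47 TPM, and Cnih1, the cornichon with a general role in export, was at 34.2 ± 2.95, well below Cnih2. Abhd6, a hydrolase that lowers surface delivery of the receptor, was lowest at 11.3 ± 2.08. The binomial test called 2 of the 7 higher and 2 lower (13.9% and 12.8% over all genes), and the edgeR exact test called 0.

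Cytoplasmic anchors and trafficking genes (9 of 9 detected, median 31.5 TPM) were led by Dlg4, the scaffold PSD-95, at 249 ± 1.09 TPM. Nsf, an ATPase that binds GluA2, followed at 132 ± 16.1, and Akap5, an anchor for kinases and phosphatases, was lowest at 16.8 ± 2.69. Here 4 of the 9 were higher, 1 was lower (13.9% and 12.8% over all genes) and the edgeR exact test called 0. The RNA editing enzymes were all 3 detected: Adar at 49.7 ± 1.51 TPM, Adarb1, the enzyme that edits the Q/R site, at 35.9 ± 0.969, and Adarb2 at 18.8 ± 0.856. In this list 2 of the 3 were higher and 0 lower by the binomial test (13.9% and 12.8% over all genes), and the edgeR exact test called 0. Adarb1 was thus present beside Gria2 in both libraries, at 35.19 and 36.56 TPM.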

How the data were processed

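Total RNA of 2 libraries of 1 group was analysed. Per the file headers, the authors deposited a gene table and a transcript table of expected counts and TPM made from alignments to transcripts, with a TPM interval (treated as signal) and each transcript's percent of its gene's TPM. They also deposited a second transcript table of estimated counts and TPM, called the other quantification. Per the deposited notes the build was mm10 and the annotation GENCODE M21. Aligner, quantifier, versions and strand setting: not given in the sources used here. Reads of both parental alleles were counted together, and how fully CAST reads were counted against mm10 was not tested. Spike-in rows (0.323% and 0.351% of counts) stayed out of library sizes.

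Levels are mean ± SD of deposited TPM (n = 2). Expected counts were rounded for a two-sided exact binomial test (scipy 1.17.1, Python 3.11.15) of genes with 10 or more counts in total, at an adjusted p of 0.05, scaled with TMM (edgeR 4.0.16, R 4.3.3). Ratios used a prior count of 0.5. The test compares these libraries only. DESeq2 1.42.0 size factors, total counts, 37 spike-in RNAs and an edgeR exact test with a common dispersion were alternatives. Both tests were tried on simulated counts. Flip and flop exons were found by length, place and encoded residues; the rule first written (serine or asparagine before glutamate-glutamine-glycine) was widened to glutamate-alanine-glycine, which Gria4 flip encodes. Coding sequences were aligned with Biopython 1.88. The 7 genes and all lists were chosen with earlier results of these data known. Named from each list were its 2 highest and its lowest detected gene. Likeness to other genes was not computed, since 2 libraries of 1 group hold no pattern.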

Additional observations from a re-analysis of the deposited data

How the results depend on the processing

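No paired analysis was possible because the series has a single group. Levels depended on the table and the denominator. The other quantification gave means of 100.7 TPM for Gria1, 255 for Gria2, 42.8 for Gria3, 57.1 for Gria4, 270.1 for Cnih2, 44.8 for Cnih3 and 13.9 for Gsg1l. Over protein-coding nuclear genes alone, which took 51.5% and 50.7% of TPM, they were 150.4, 356, 63.1, 79.0, 388, 56.7 and 17.7 in the same order. Shares in the Gria sum moved to 31.7% for Gria1, 41.9% for Gria2 and 16.6% for Gria4 over protein-coding transcripts, and to 33.6%, 47.6% and 8.50% over those with a flip or flop exon, both chosen after seeing the data; by expected counts Gria4 had 9.56%. The ratio of Gria3 to Cnih3 turned to -0.053 in the other quantification, and that of Gria3 between libraries to 0.0025. Leading transcript shares became 80.1% (Gria1-201), 45.9% (Gria2-202), 53.7% (Gria4-203), 97.7% (Cnih2-201) and 69.3% (Cnih3-201) there, and flip shares 84.1% (Gria1), 81.5% (Gria2) and 81.9% (Gria3). With protein-coding transcripts only, flip shares were 78.6% (Gria2) and 100% (Gria3). The edgeR exact test called 197 genes against 5435, and 0 of the 7 against 6. Of all genes called, 52.1% were higher in replicate 2 with TMM, 58.2% with DESeq2 size factors, 41.9% with total counts, 20.4% with spike-in RNAs, which shift every ratio by -0.09, and 56.5% in the other quantification. The causes were not tested. Neither library left out turned the direction of a neighbour pair called different. Counts of 1259 to 30307 per gene set the precision between libraries, while transcript shares are limited by how reads were assigned.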
